A study of Mus musculus with 10 samples.

Results

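The Ms4a genes encode small proteins that span the membrane several times and sit beside other receptors at the cell surface, where they alter signalling. The best known, Ms4a1, encodes CD20, a B cell surface protein that appears as precursors mature and is the target of the antibody rituximab. Other members are used mainly by macrophages, T cells, mast cells or myeloid precursors. The 8 members described here are Ms4a1, Ms4a4a, Ms4a4b, Ms4a4c, Ms4a6b, Ms4a6c, Ms4a6d and Ms4a7, out of 19938 gene symbols that the array measures with a single-symbol probe set. Probe sets were chosen by platform symbol and by mean level: each member was represented by the probe set that carries its symbol alone, taking the one with the highest mean over all 10 arrays where a symbol had several, and all 8 members had 1 such probe set. The probe set choice used levels over all arrays and not genotype, but the family was proposed with the low Ms4a1 value of heterozygous cells already known, so the genotype difference of Ms4a1 is given as a description.

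The cells came from 5 Hspa9+/- mice (heterozygous) and 5 Hspa9+/+ littermates (wild type). Hspa9 encodes mortalin, a chaperone of the mitochondrial matrix. Marrow of each mouse was cultured separately for 7 days in a methylcellulose medium (M3630) in which single B cell precursors form colonies (CFU-PreB), and B220+ cells were sorted from the colonies onto 1 Mouse Gene 1.0 ST array per mouse. The labels do not state the strain, the age of the mice or how the Hspa9 allele was made.

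Values are RMA expression on the log2 scale, where a difference of 1 is a doubling, and differences are heterozygous minus wild type from limma with the SE of the fit. Benjamini-Hochberg adjustment ran over the 14953 genes whose mean exceeded 4.52, the 25th percentile of all symbols. Hspa9 itself read 9.52, 8.92, 9.30, 9.21 and 8.97 in heterozygous arrays, against 9.49, 9.57, 10.36, 10.17 and 9.99 in wild type arrays, and its adjusted p was 0.345. Heterozygous 1 lay above wild type 1. The B lineage genes Cd79a and Cd79b, which encode the signalling chains of the B cell receptor, averaged 11.68 and 12.22 in heterozygous cells, against 11.82 and 12.33 in wild type cells. Macrophage genes were also present in the sorted cells. The mean of the 15 tested macrophage markers (of 16 listed) was 7.27, 9.59, 7.22, 6.91 and 7.06 in heterozygous arrays, against 9.03, 7.58, 5.84, 5.69 and 5.81 in wild type arrays. Heterozygous 2 and wild type 1 therefore stood apart from the rest, and results are given with and without these 2 arrays.

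The members are neighbours on mouse chromosome 19, where the RefSeq gene table of GRCm38.p6 lists 21 Ms4a genes with 1 other gene among them. Along the chromosome the members run in the order Ms4a1, Ms4a7, Ms4a4a, Ms4a4c, Ms4a4b, Ms4a6c, Ms4a6b and Ms4a6d. RefSeq promoter windows of 300 bases (250 before the start of the gene and 50 after it) were at hand for 6 of the 8 members, with 2 windows for Ms4a7. Among these windows a pair of neighbours stood out in each subfamily. The windows of Ms4a6b and Ms4a6c were 82.1% identical over 235 aligned columns, and those of Ms4a4b and Ms4a4c 74.9% identical over 307 aligned columns. No other pair of members with windows shared a run of more than 9 bases. The 250 bases before the start are shown for these 4 genes because their windows are the similar ones among the 6 members compared. Windows of other Ms4a genes were not compared. Capitals mark the longest run of bases shared by the windows of a pair, 48 bases in Ms4a6b and Ms4a6c and 20 bases in Ms4a4b and Ms4a4c. The sequences are the plus strand, from RefSeq, of chr19:11518309-11518558, chr19:11469118-11469367, chr19:11443308-11443557 and chr19:11407411-11407660 of GRCm38.p6, 5′ to 3′ in the direction of the gene.
Ms4a6b: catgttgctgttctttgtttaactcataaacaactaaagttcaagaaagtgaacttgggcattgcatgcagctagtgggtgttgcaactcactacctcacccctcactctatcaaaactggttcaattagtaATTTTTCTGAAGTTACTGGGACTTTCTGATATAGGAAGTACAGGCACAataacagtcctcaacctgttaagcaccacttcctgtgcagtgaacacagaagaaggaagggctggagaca
Ms4a6c: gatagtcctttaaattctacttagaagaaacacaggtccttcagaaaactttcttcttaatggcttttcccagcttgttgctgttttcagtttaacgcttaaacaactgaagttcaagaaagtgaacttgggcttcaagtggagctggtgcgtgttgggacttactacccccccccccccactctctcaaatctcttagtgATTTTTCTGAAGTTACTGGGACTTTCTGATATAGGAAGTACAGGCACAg
Ms4a4b: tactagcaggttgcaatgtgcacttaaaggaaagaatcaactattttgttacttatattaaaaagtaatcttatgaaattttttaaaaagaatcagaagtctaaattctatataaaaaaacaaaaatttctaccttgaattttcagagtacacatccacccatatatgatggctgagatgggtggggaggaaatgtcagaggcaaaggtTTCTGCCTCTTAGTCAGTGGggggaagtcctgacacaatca
Ms4a4c: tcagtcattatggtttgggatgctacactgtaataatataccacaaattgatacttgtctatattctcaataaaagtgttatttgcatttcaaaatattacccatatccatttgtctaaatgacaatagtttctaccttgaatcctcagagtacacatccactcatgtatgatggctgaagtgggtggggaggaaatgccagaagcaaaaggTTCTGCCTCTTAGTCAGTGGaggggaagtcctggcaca

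The 48-base run begins 118 bases before the start of Ms4a6b and 49 bases before that of Ms4a6c. The 20-base run begins 41 and 38 bases before the starts of Ms4a4b and Ms4a4c. Motifs of blood cell transcription factors were searched as plain letters on both strands of the 7 whole windows. The octamer ATGCAAAT, the site of the POU factors, was found in that of Ms4a4c alone, 170 bases before the start, and 1.74% of the 32851 windows in the table hold it. The AP-1 letters TGANTCA were found 22 bases past the start of Ms4a4b and 81 bases before the start in the second Ms4a7 window, against 7.81% of all windows. No window held GAGGAAGT (PU.1, 3.20% of all windows) or TTGCNNAA (C/EBP, 10.8%), and none held the interferon-stimulated response element (2.72%). A match of letters is a description of the window and not evidence of binding.

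Ms4a1, the CD20 gene, was lower in every heterozygous array than in any wild type array. It read 8.05, 8.04, 8.01, 7.16 and 6.67 in heterozygous arrays 1 to 5, against 8.56, 9.86, 9.32, 8.91 and 9.15 in wild type arrays 1 to 5. Among heterozygous mice, 3 lay within 0.1 of each other just above 8, and mice 4 and 5 lay lower. Group means were 7.59 ± 0.635 in heterozygous and 9.16 ± 0.483 in wild type cells (SD, n = 5 each), a difference of -1.57 (SE 0.312). This places the heterozygous level at 33.7% of the wild type level, with a 95% interval of 20.9 to 54.3%. Over all genes the adjusted p of limma was 0.222, and 0% of the 14953 genes passed. Only 0.0134% of genes, Ms4a1 and the complement regulator Cd55, had a difference of -1.5 or lower, and 0.809% had all heterozygous arrays below all wild type arrays. In RNA from a whole sort, fewer cells that express CD20 and less CD20 RNA per cell cannot be told apart. Ptprc, the gene of the B220 antigen used for the sort, differed by -0.68 (SE 0.345, adjusted p = 0.490), and its lowest values, 8.33 and 7.89, were in heterozygous 4 and 5, the same arrays that were lowest for Ms4a1.

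The CD20 difference was as large without the 2 arrays high in macrophage genes. Without them it was -1.83 (SE 0.319, adjusted p = 0.0641), and with the macrophage mean as covariate it was -1.61 (SE 0.323, adjusted p = 0.113). With the mean of the B lineage markers as a covariate it was -1.13 (SE 0.355), with a 95% interval of -1.92 to -0.34. Its adjusted p was 1.00 in that fit, the same as for the other members above the filter, and 0 genes passed. With array weights it was -1.39 (adjusted p = 0.0311), in a fit where 0.916% of all genes passed. With 1 array left out the difference nearest to 0 was -1.34, without heterozygous 5. Leaving out heterozygous 2 and wild type 1 did not even out the macrophage markers, whose median difference was still 0.87 in the other arrays.

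**Figure D1:**
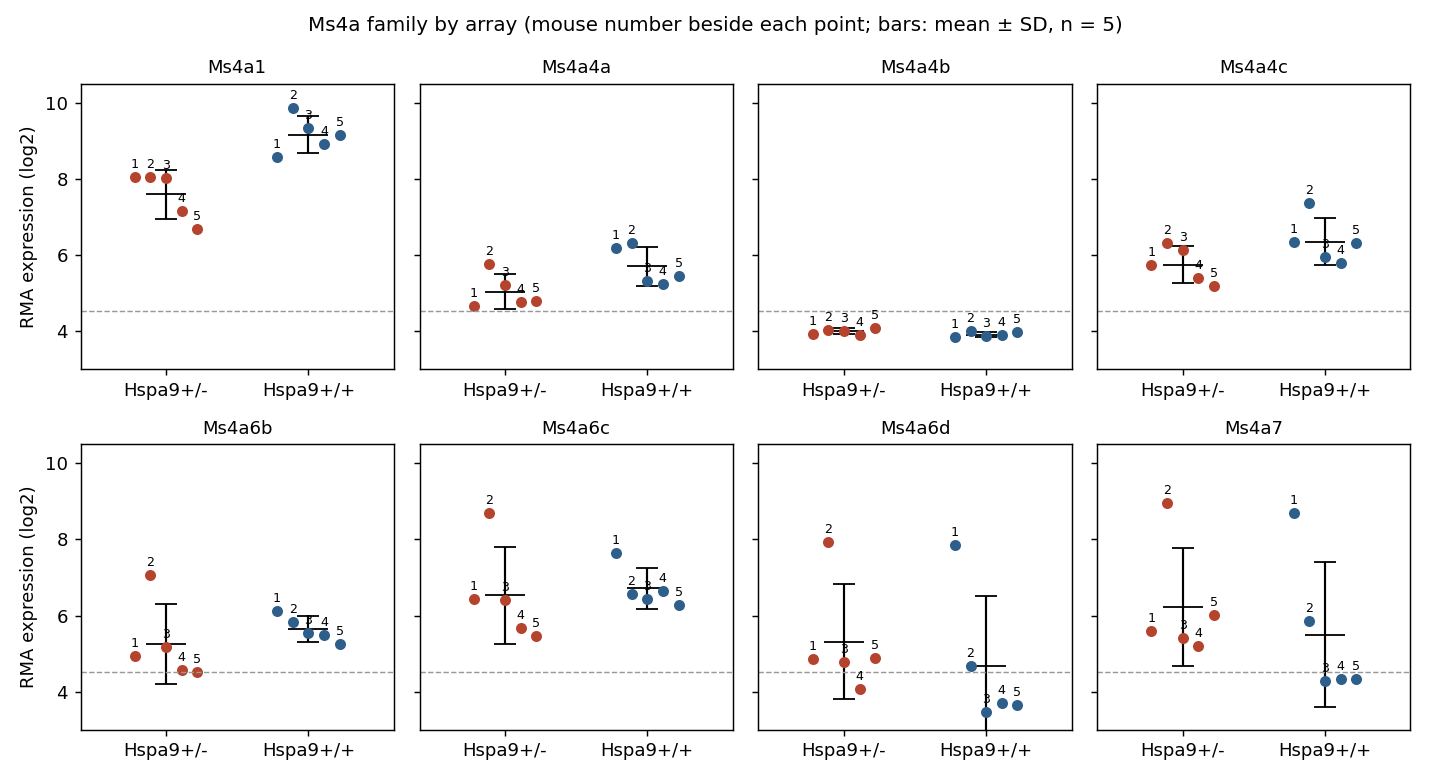
RMA expression (log2) of the 8 Ms4a members, 1 point per array with the mouse number beside it, Hspa9+/- left of Hspa9+/+; the bars are mean ± SD (n = 5) and the dashed line is the filter at 4.52. Ms4a1 is the only member whose groups do not overlap, Ms4a4b lies below the filter in all 10 arrays, and heterozygous 2 and wild type 1 are the highest arrays of Ms4a6d and Ms4a7 in their groups.

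Of the 7 members above the filter, 5 had lower and 2 had higher means in heterozygous cells, against 38.7% of all genes with a difference below 0. None passed adjustment, 1 (Ms4a1) did not overlap between groups, against 2.28% of all genes, and 3 (Ms4a1, Ms4a4a and Ms4a4c) had a difference of -0.5 or lower, against 3.37%. At an unadjusted p under 0.05 there were Ms4a1 and Ms4a4a, both lower, where 4.25% of all genes were lower at that level. Over all 10 arrays Ms4a1 was the member that separated by genotype. Ms4a6d and Ms4a7 were those that ran with the macrophage markers both with and without heterozygous 2 and wild type 1. Ms4a4a, Ms4a6b and Ms4a6c also ran with the markers over the 10 arrays in values less their genotype means, as described in turn.

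Ms4a4a encodes a surface protein of macrophages that associates with the fungal receptor Dectin-1. It read 4.65, 5.76, 5.20, 4.76 and 4.80 in heterozygous arrays, against 6.19, 6.30, 5.32, 5.23 and 5.45 in wild type arrays. Only heterozygous 2, an array high in macrophage genes, overlapped the wild type range. The means of 5.04 ± 0.457 in heterozygous and 5.70 ± 0.506 in wild type cells (SD, n = 5 each) differed by -0.66 (SE 0.269, adjusted p = 0.425), or 63.1% of wild type with a 95% interval of 41.9 to 95.2%. Without heterozygous 2 and wild type 1 the ranges were 4.65 to 5.20 in heterozygous and 5.23 to 6.30 in wild type arrays, a difference of -0.72 (SE 0.231, adjusted p = 0.223). With the macrophage mean as covariate the difference was -0.93 (SE 0.145), the smallest adjusted p of any member in that fit, 0.0570.

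Ms4a4c, a close relative next to it on the chromosome, read 5.72, 6.31, 6.13, 5.38 and 5.18 in heterozygous arrays. In wild type arrays it read 6.34, 7.36, 5.94, 5.78 and 6.31. The highest array was wild type 2 and the lowest were heterozygous 4 and 5, the same as for Ms4a1, and the groups overlapped. The difference was -0.60 (SE 0.306, adjusted p = 0.490) over all arrays, -0.75 (SE 0.335) without the 2 arrays and -0.80 (SE 0.264) with the covariate. Without wild type 2 alone it was -0.35. Ms4a4a and Ms4a4c resembled each other across arrays, with a Pearson r of 0.874 over 10 arrays and 0.938 over the 8 arrays left when heterozygous 2 and wild type 1 are removed.

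Ms4a6b and Ms4a6c, the pair with the longer shared promoter stretch, moved together from array to array (r = 0.961 over 10 arrays and 0.874 over 8). Ms4a4b and Ms4a4c, the other pair with similar windows, did not (r = 0.0109 and 0.0511), with Ms4a4b below the filter. Ms4a4a and Ms4a4c, whose windows were not similar, had an r of 0.938 over the 8 arrays. A link between promoter windows and expression was not tested. Ms4a6b read 4.92, 7.07, 5.18, 4.56 and 4.52 in heterozygous arrays, against 6.13, 5.82, 5.53, 5.49 and 5.26 in wild type arrays. Ms4a6c read 6.43, 8.69, 6.40, 5.66 and 5.46 in heterozygous arrays, against 7.63, 6.58, 6.43, 6.65 and 6.28 in wild type arrays. In both genes heterozygous 2 was the highest array of all, heterozygous 4 and 5 the lowest, and wild type 1 the highest of its group. The probes of such similar genes may bind each other's RNA; their sequences were not used here, so how far the 2 probe sets read separate genes was not tested.

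The genotype difference of this pair was larger when both arrays high in macrophage genes were left out, but the 2 arrays did not act alike. Without heterozygous 2 alone it was -0.85 for Ms4a6b and -0.725 for Ms4a6c. Without wild type 1 alone it was -0.28 and 0.0445. Over all arrays Ms4a6b differed by -0.40 (SE 0.427) and Ms4a6c by -0.18 (SE 0.535), with adjusted p-values of 0.694 and 0.888. Without heterozygous 2 and wild type 1, Ms4a6b ranged from 4.52 to 5.18 in heterozygous arrays, against 5.26 to 5.82 in wild type arrays, so that the groups no longer overlapped. The difference was then -0.73 (SE 0.176, adjusted p = 0.133) for Ms4a6b and -0.50 (SE 0.223, adjusted p = 0.313) for Ms4a6c. The macrophage covariate gave -0.78 (SE 0.276) and -0.68 (SE 0.336). The sign of Ms4a6c over all arrays was not stable. Besides the value without wild type 1, its difference was 0.03 without heterozygous 4 and 0.08 without heterozygous 5.

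In that 8-array comparison, 3 of the 7 members (Ms4a1, Ms4a4a and Ms4a6b) were lower at an unadjusted p under 0.05 and without overlap, against 6.09% and 2.97% of all genes. Ms4a6d and Ms4a7 were higher at an unadjusted p under 0.05, against 10% of all genes. With the macrophage covariate in all 10 arrays, 4 members (Ms4a1, Ms4a4a, Ms4a6b and Ms4a4c) were lower at that level, against 5.8% of all genes. No member passed adjustment in either fit, where 0.174% of all genes passed without the 2 arrays and 0% with the covariate.

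**Figure D2:**
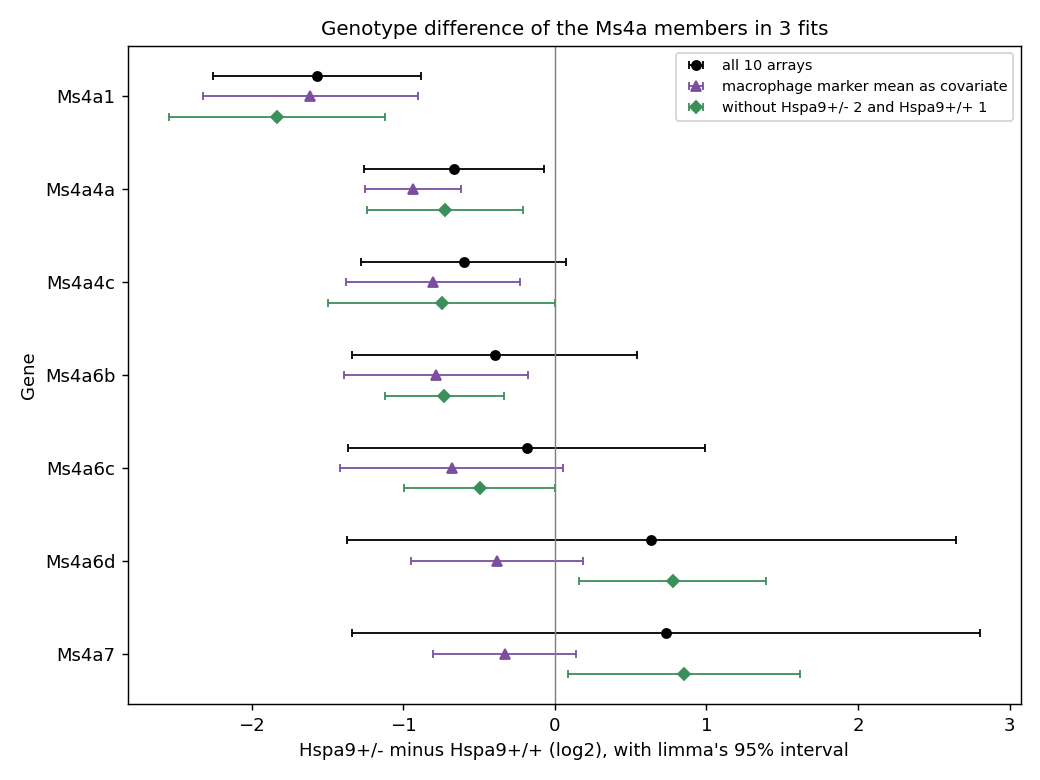
Genotype difference (Hspa9+/- minus Hspa9+/+, log2) of the 7 members above the filter with limma's 95% interval, in the fit of all 10 arrays (circles), with the macrophage mean as covariate (triangles) and without heterozygous 2 and wild type 1 (diamonds). Ms4a1 lies between -1.83 and -1.57 in all 3 fits. Ms4a6d and Ms4a7 lie above 0 in both fits without the covariate and below 0 with it in all 10 arrays.

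Ms4a6d and Ms4a7, genes of monocytes and macrophages, varied most over the arrays, and with all 10 arrays their genotype differences were smaller than their SE. Ms4a6d read 4.87, 7.94, 4.78, 4.07 and 4.89 in heterozygous arrays, against 7.87, 4.67, 3.47, 3.71 and 3.64 in wild type arrays. Ms4a7 read 5.60, 8.96, 5.41, 5.19 and 6.01 in heterozygous arrays, against 8.69, 5.86, 4.28, 4.34 and 4.33 in wild type arrays. Each group held 1 array far above its others, heterozygous 2 and wild type 1, and the ranges overlapped. The differences were 0.64 (SE 0.913, adjusted p = 0.767) and 0.73 (SE 0.940, adjusted p = 0.738). Without the 2 arrays they were 0.78 (SE 0.276, adjusted p = 0.252) and 0.85 (SE 0.342, adjusted p = 0.284), with 95% intervals of 0.16 to 1.40 and 0.09 to 1.62. With the macrophage mean as covariate in all 10 arrays both turned below 0, to -0.38 (SE 0.259) and -0.33 (SE 0.216). With that covariate but without the 2 arrays they were 0.22 (SE 0.210) and 0.11 (SE 0.212). The macrophage markers themselves had a median difference of 0.87 without the 2 arrays. Ms4a6d and Ms4a7 were the most alike pair of members over 10 arrays (r = 0.992). Over the 8 arrays their r was 0.950, and the most alike pair was Ms4a1 and Ms4a6b at 0.961 (0.446 over 10 arrays).

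The marker list used for the covariate holds no Ms4a gene, which allows each member to be set against it. Across the 10 arrays Ms4a7 correlated with the macrophage marker mean at r = 0.975 (permutation p = 2e-05, Benjamini-Hochberg adjusted over 8 members 0.00016) and Spearman's rho 0.879 (permutation p = 0.00154, adjusted 0.0123). Without heterozygous 2 and wild type 1, the arrays farthest from the median, r was 0.945 (exact p = 0.00402, adjusted 0.0182). Ms4a6d gave r = 0.960 (permutation p = 7e-05, adjusted 0.00028) and rho 0.842 (permutation p = 0.00375, adjusted 0.0150), and r = 0.914 without the 2 arrays (exact p = 0.00454, adjusted 0.0182). Both relations held over all 10 arrays in the values less their genotype means, at 0.979 and 0.965. The 2 genes thus ran with the macrophage markers over all arrays and within genotypes.

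In the values with genotype means left in, no other member passed adjustment over the 10 arrays or without the 2 arrays. Ms4a6c gave r = 0.721 (permutation p = 0.0194, adjusted 0.0517) and rho 0.467 (permutation p = 0.178, adjusted 0.385) over 10 arrays, but r = -0.227 without the 2 arrays. Ms4a6b gave 0.632 (permutation p = 0.0507, adjusted 0.101) and rho 0.455 (permutation p = 0.192, adjusted 0.385), but -0.255 without them. Less their genotype means, these genes gave 0.804 (permutation p = 0.0107, adjusted 0.0171) and 0.795 (permutation p = 0.00588, adjusted 0.0118) over all 10 arrays. Ms4a4a gave 0.468 over 10 arrays (permutation p = 0.171, adjusted 0.274; rho 0.358, permutation p = 0.313, adjusted 0.417) and 0.0212 without the 2 arrays (exact p = 0.960). Less the genotype means it gave 0.895 over all 10 arrays (permutation p = 0.00196, adjusted 0.00523). Correlations in values less the genotype means were not computed without the 2 arrays, so how far they rest on these arrays was not tested. Ms4a1, by contrast, gave -0.216 (permutation p = 0.548, adjusted 0.572; rho -0.152, permutation p = 0.682), and -0.334 without the 2 arrays. Ms4a4c at 0.298 and Ms4a4b at 0.202 did not pass either.

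**Figure D3:**
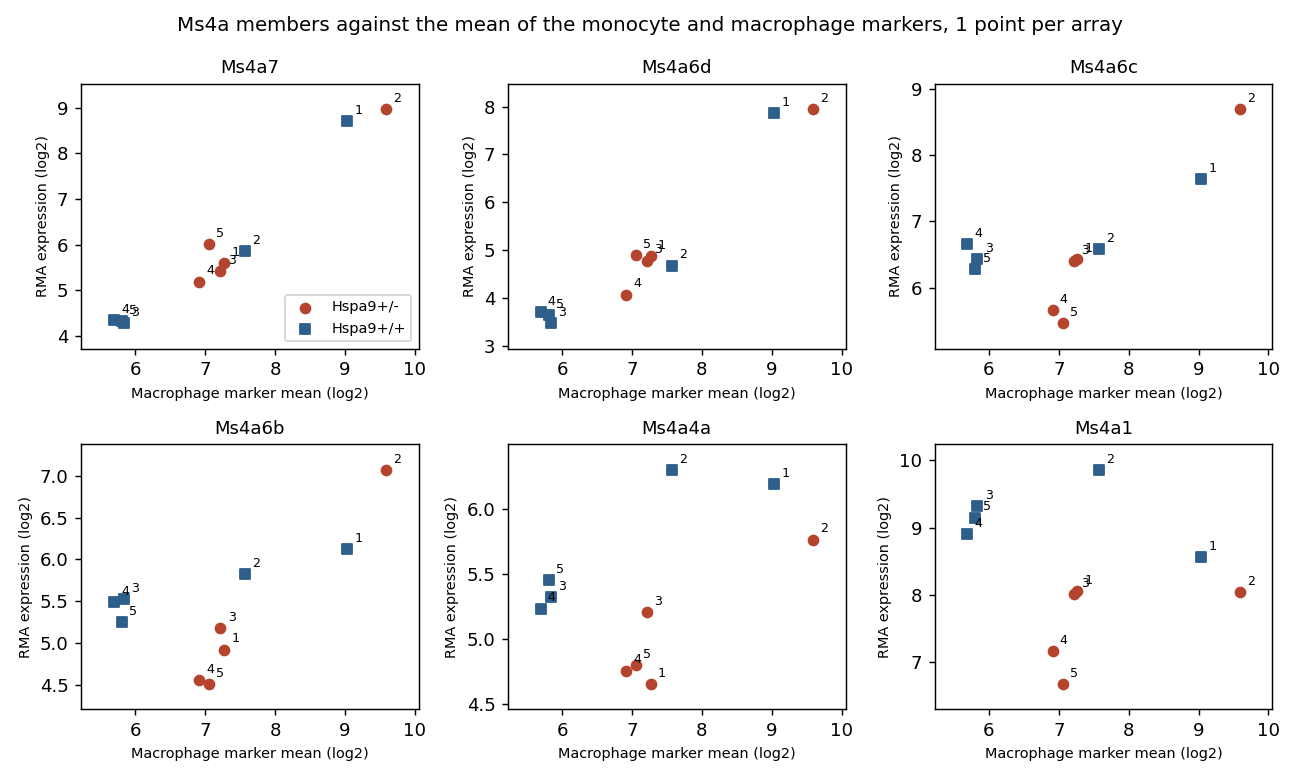
RMA expression (log2) of 6 members against the mean of the 15 macrophage markers (log2), 1 point per array with the mouse number, circles for Hspa9+/- and squares for Hspa9+/+. Ms4a7 and Ms4a6d climb with the marker mean across both genotypes. Ms4a4a is highest in heterozygous 2 among heterozygous arrays and in wild type 1 and 2 among wild type arrays. Ms4a1 is lower in every heterozygous array than in any wild type array. Wild type 3, 4 and 5 lie at marker means of 5.69 to 5.84, below those of all heterozygous arrays.

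Ms4a4b, a T cell gene whose product joins the co-stimulatory receptor GITR, was not expressed above the filter. It read between 3.89 and 4.09 in heterozygous arrays and between 3.83 and 3.99 in wild type arrays. In a fit without the filter its difference was 0.08 (SE 0.08, adjusted p = 0.703). The T cell and NK cell markers, by comparison, had 5 of 10 measured genes above the filter, 4 of them higher in heterozygous cells at an unadjusted p under 0.05 (against 6.79% of all genes), 3 without overlap (against 1.47%) and 0 after adjustment. Among markers of other cells, 4 of 5 plasmacytoid dendritic cell genes were higher at that level with a median difference of 1.06, as were 1 of 5 mast cell and basophil genes (median 0.10, and 0.06 to 0.19 with 1 array left out) and 0 of 12 neutrophil genes (median 0.37, but 0.16 without heterozygous 2 and 0.67 without wild type 1), and 0 passed adjustment.

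The rest of the family was mostly dim. Of 11 other Ms4a genes on the array, 7 lay below the filter with means of 2.33 to 3.92, among them Ms4a2, the beta chain of the high-affinity IgE receptor, and Ms4a4d. The 4 above it were Ms4a10 at 0.14 (SE 0.127), Ms4a15 at 0.06 (SE 0.0863), Ms4a8a at -0.01 (SE 0.0916) and Ms4a3 at 0.43 (SE 0.249), and none was called. Ms4a3, a gene of granulocyte and monocyte precursors, read 5.96 in heterozygous 2 and 4.60 to 4.83 in the other 4 heterozygous arrays, against 4.08 to 4.82 in wild type arrays. Ms4a14 and Ms4a18 had no single-symbol probe set.

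The distant relatives Tmem176a and Tmem176b, membrane proteins of antigen-presenting cells, had higher means in heterozygous cells. Tmem176b ranged from 6.65 to 6.89 in heterozygous arrays, against 5.51 to 6.65 in wild type arrays. Its difference was 0.74 (SE 0.230, adjusted p = 0.349), and that of Tmem176a was 0.81 (SE 0.259, adjusted p = 0.349). The overlap came from wild type 1 alone for Tmem176b and from wild type 1 and 2 for Tmem176a. These are the wild type arrays highest in macrophage markers. With the macrophage mean as covariate the differences were 0.53 (SE 0.157) for Tmem176b and 0.62 (SE 0.211) for Tmem176a.

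Of 8 genes whose products work beside Ms4a proteins, 7 had a difference above 0 and 1 below it. Their median difference was 0.79 against 0.06 over all genes, but 0.33 without heterozygous 2 and 1.42 without wild type 1. At an unadjusted p under 0.05, 1 was lower and 1 higher, against 4.25% and 6.79% of all genes, and 0 passed adjustment. Fcgr2b, the inhibitory Fc receptor of B cells, was the lower one. It read 7.06, 7.70, 7.23, 7.00 and 6.86 in heterozygous arrays, against 8.05, 8.03, 7.84, 8.01 and 8.28 in wild type arrays, without overlap, and differed by -0.87 (SE 0.155, adjusted p = 0.178). Tnfrsf18, which encodes GITR, was at 0.48 (SE 0.189, adjusted p = 0.409), and Tyrobp, an adaptor of myeloid receptors, at 1.59 (SE 0.834, adjusted p = 0.494). The macrophage markers had a median difference of 0.93 (0.38 without heterozygous 2 and 1.52 without wild type 1), with 0 of 15 genes at an unadjusted p under 0.05. With the macrophage mean as covariate the median difference of the partners was 0.0244.

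No transcription factor known to act at the CD20 gene passed adjustment. Of 11 tested, 10 were below 0 with a median of -0.30, against 38.7% of all genes below 0. At an unadjusted p under 0.05, 0 were lower and 1 was higher, against 4.25% and 6.79% of all genes. Without 1 array the median ran from -0.41 (without wild type 1) to -0.19 (without heterozygous 2). The higher factor was Irf8 at 0.40 (SE 0.175, adjusted p = 0.447), followed by Spib at -0.30 (SE 0.139, adjusted p = 0.463) and Irf4 at -0.39 (SE 0.219, adjusted p = 0.511). Surface neighbours of CD20, such as tetraspanins and chains of the B cell receptor, had a median of -0.11 over 13 genes (-0.00931 without wild type 2). At that level 1 was lower and 0 were higher, against 4.25% and 6.79% of all genes, a share near the background. The genes of smallest p were Cd40, a co-stimulatory receptor, at -0.66 (SE 0.298, adjusted p = 0.449), Pag1, an adaptor of lipid rafts, at 0.51 (SE 0.239) and Cd81, a tetraspanin, at 0.21 (SE 0.133).

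The low CD20 value stood among other genes of later B cell stages. Of 13 tested genes in that list, which does not contain Ms4a1, 10 were lower at an unadjusted p under 0.05 and 6 did not overlap, against 4.25% and 0.809% of all genes, and 0 passed adjustment. The list's mean was 7.87 to 8.12 in heterozygous arrays, against 8.47 to 9.22 in wild type arrays, and its median difference was -0.74. Cd55 was at -1.82 (SE 0.291, adjusted p = 0.111) and S1pr1, the receptor for egress signals, at -0.95 (SE 0.149, adjusted p = 0.111). The 11 genes that mark the B lineage as a whole had a median difference of -0.15, with 2 lower and 1 higher at that level (4.25% and 6.79% of all genes) and Rag1, a recombinase, at -0.79 (SE 0.231), Cd24a at -0.19 (adjusted p = 0.443) and Igll1, a surrogate light chain gene, at 0.28 (SE 0.105). This pattern of later-stage genes was known when the lists were drawn up and is not independent of the choice of Ms4a1.

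Of all genes tested, the one most like Ms4a1 over the 10 arrays was Bank1, a scaffold of B cell receptor signalling. Its r was 0.983, and 0.945 in values less the genotype means, against a median of -0.162 over all genes. Bank1 read 6.46, 6.82, 6.57, 6.13 and 5.79 in heterozygous arrays, against 7.10, 8.22, 7.78, 7.64 and 7.65 in wild type arrays, so that it had the same lowest arrays and the same highest array, wild type 2. The next were Stk17b, a kinase, at 0.951, Ino80c, a chromatin remodelling subunit, at 0.946, Sp100, a nuclear body protein, at 0.944 and Dcaf6 at 0.943. Part of each r comes from genotype, since all 5 genes had lower means in heterozygous cells, and less the genotype means the other 4 had r from 0.804 to 0.889.

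Ms4a6c, whose probe set had the highest mean after that of Ms4a1, was most like a different set of genes, with the same kinds of genes left out. These were Cpeb4 at 0.986, Sbf2 at 0.984, Atp6v1h, a subunit of the vacuolar proton pump, at 0.970, Plek, a phosphoprotein of platelets and leukocytes, at 0.970, and Cybb, the phagocyte oxidase subunit, at 0.968. Less the genotype means their r was 0.967 to 0.987, and their own genotype differences lay between -0.44 and 0.02. Cybb is also in the macrophage marker list, where it is 1 of 15 genes and had the only difference below 0, at -0.18 (SE 0.455).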

How the data were processed

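Arrays were summarised by the authors to RMA log2 values per gene in Expression Console, per the labels; its version, build and annotation are not given in the sources used here. That method sets all arrays to a shared distribution (array medians 5.38 to 5.49), and the number of arrays limits the precision. Of 35556 probe sets, 21789 had 1 platform symbol, 1621 carried several symbols and 12146 were absent from the annotation table. Entrez identifiers matched RefSeq GRCm38.p6 for 21698. The probe set of highest mean was kept per symbol, and symbols above the 25th percentile were tested with limma 3.58.1 in R 4.3.3 (lmFit, eBayes, Benjamini-Hochberg, threshold 0.05), after a test on simulated data. Correlations used two-sided permutations, 100000 for 10 arrays and exact below that. Mice were cultured separately, so each array is a biological replicate.

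Members, gene lists and the 2 arrays set aside were chosen with earlier results of these data known. Named were all members, the other Ms4a genes, Hspa9 and Ptprc, the 3 genes of smallest p per list (markers of other cell types are given by counts) and the 5 genes most like Ms4a1 and Ms4a6c; Cd79a, Cd79b and Cybb were named after their values were seen. Promoter windows are those of RefSeq. Alternatives were other filters, normalizations and variance models, array weights, the replicate block, marker covariates and arrays left out; the B lineage covariate and the macrophage covariate without the 2 arrays were chosen after seeing the data.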

Additional observations from a re-analysis of the deposited data

Results flagged for a closer look

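Within-group outliers were sought by Dixon's ratio (gap to the nearest array over the range of the group, critical value 0.71 for 5 arrays) in 18 groups of 5 arrays, and chance alone flags about 1 group in 20. Heterozygous 2 was far above the other heterozygous arrays for Ms4a6b, at 7.067 (ratio 0.739), for Ms4a6d, at 7.942 (ratio 0.788), and for Ms4a7, at 8.961 (ratio 0.782). Wild type 1 was far above the other wild type arrays for Ms4a6c, at 7.632 (ratio 0.723), and for Ms4a6d, at 7.867 (ratio 0.727). These are the 2 arrays with the highest macrophage marker means, 9.59 and 9.03, and the part of other cells in these values was not tested.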

How the results depend on the processing

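The count of genes called was 0 over all arrays, 137 with array weights, 26 without heterozygous 2 and wild type 1, 2 with the macrophage covariate in those 8 arrays, and 0 to 22 when 1 array was left out (3 without heterozygous 2, 22 without wild type 1). Ms4a1 passed only with array weights, at -1.39 (adjusted p = 0.0311), and gave -1.72 to -1.34 with 1 array left out. Other leave-one-out ranges were -0.85 to -0.51 for Ms4a4a, -0.74 to -0.35 for Ms4a4c, -0.85 to -0.21 for Ms4a6b, -0.725 to 0.0817 for Ms4a6c, -0.0205 to 1.44 for Ms4a6d and 0.05 to 1.53 for Ms4a7. Ms4a6c also turned to 0.0698 with the B lineage covariate. With the macrophage covariate Ms4a6d turned to -0.38 and Ms4a7 to -0.33. For correlation with macrophage markers, values less their genotype means gave 0.122 for Ms4a1, 0.895 for Ms4a4a, 0.795 for Ms4a6b and 0.804 for Ms4a6c, and leaving out the 2 farthest arrays gave -0.255 for Ms4a6b and -0.227 for Ms4a6c. With 1 array left out these correlations ran from -0.319 to -0.105 for Ms4a1, 0.293 to 0.530 for Ms4a4a, -0.0516 to 0.593 for Ms4a4b, 0.250 to 0.388 for Ms4a4c, 0.302 to 0.700 for Ms4a6b, 0.457 to 0.793 for Ms4a6c, 0.932 to 0.974 for Ms4a6d and 0.957 to 0.980 for Ms4a7. The cause of these moves was not tested. The replicate numbers share only a number (same-number correlations of deviations from -0.528 to 0.534, and 0 heterozygous arrays closest to their own number), and with the replicate block 0 genes were called, with Ms4a1 at -1.57 (adjusted p = 0.501).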
